A study of Mus musculus with 12 samples.

Results

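The comparison described here set CCR2hi cells of Bhlhe41dTomato-Cre+/- mice, called Bhlhe41Cre below, against CCR2hi cells of wild-type (WT) mice. It used 6 of the 12 libraries of the series, 3 per genotype, chosen by their titles. All were labelled as macrophages from hearts of male C57BL/6N mice after myocardial infarction (MI), made by tying off the left anterior descending coronary artery. Bhlhe41Cre mice carry 1 allele with a dTomato-Cre insertion at Bhlhe41, so the same locus is both the reporter and the altered gene. Every group had the infarction, and no uninjured heart was included. In the deposited table the Bhlhe41Cre columns are named KD and were matched to these samples by gate and number, and the label fields of these samples were shifted, so that the title gave the genotype. Age, the time after infarction and the number of animals per library were not given in the sources used here, so p-values measure the spread between these libraries, which may be technical. The sample records of WT and Bhlhe41Cre form separate blocks. A difference in handling between the genotypes, if there was one, cannot be told apart from genotype. The 6 CCR2low libraries of the same 2 genotypes served as a second reference, and one model was fitted over all 12. Changes are Bhlhe41Cre minus WT throughout, on the log2 scale ± SE, and levels are CPM, counts scaled to a common library size.

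CCR2 is the receptor through which CCL2 draws monocytes out of the blood, and in the injured heart it is widely used to separate monocyte-derived cells from long-lived resident macrophages. Bhlhe41 and its paralog Bhlhe40 encode basic helix-loop-helix repressors that bind the E-box CACGTG. The circadian activators CLOCK and BMAL1 use the same element, and the repressors are part of the clock's feedback. Both also act in immune cells, where Bhlhe40 and Bhlhe41 are known from tissue macrophages and lymphocytes.

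Library depth was 17702018 to 19450852 counts in Bhlhe41Cre and 18636585 to 19789510 in WT. Within a genotype the CCR2hi libraries correlated at 0.973 to 0.987 (Pearson's r of log2 CPM across genes), against 0.936 to 0.951 between genotypes. The label of macrophages was only partly borne out by markers. Col3a1, a fibrillar collagen of fibroblasts, was the most abundant autosomal gene in all 6 CCR2hi libraries. The 15 fibroblast markers took 5.40%, 4.62% and 4.26% of counts in the Bhlhe41Cre libraries and 8.21%, 7.97% and 8.84% in WT. The 20 macrophage identity markers took 0.900%, 0.972% and 1.17% in Bhlhe41Cre and 0.263%, 0.497% and 0.605% in WT, against means of 3.39% and 3.70% in the CCR2low libraries of Bhlhe41Cre and WT. No library overlapped the other genotype for either list, and each difference gave p = 0.1 by an exact two-sided permutation test, the smallest p that 3 against 3 libraries allow. Mitochondrially encoded genes took 2.39% to 3.46% of counts in Bhlhe41Cre and 5.72% to 8.05% in WT. Xist, which is transcribed from the inactive X chromosome of female cells, had 1798, 1589 and 1403 counts in the Bhlhe41Cre libraries and 3, 0 and 0 in WT, although all samples were labelled male. In CCR2low it had 3699, 2983 and 2027 counts in Bhlhe41Cre and 0 in each WT library. The presence of Xist thus coincided with genotype, and their effects on other genes cannot be told apart. Y-linked genes were also counted in every CCR2hi library, at 182 to 1413 counts in Bhlhe41Cre and 1056 to 1741 in WT. X- and Y-linked genes were therefore left out of all counts below. The part of these differences between libraries in the results that follow was not tested, and in bulk RNA fewer cells of a type and less RNA per cell cannot be told apart.

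**Figure D1:**
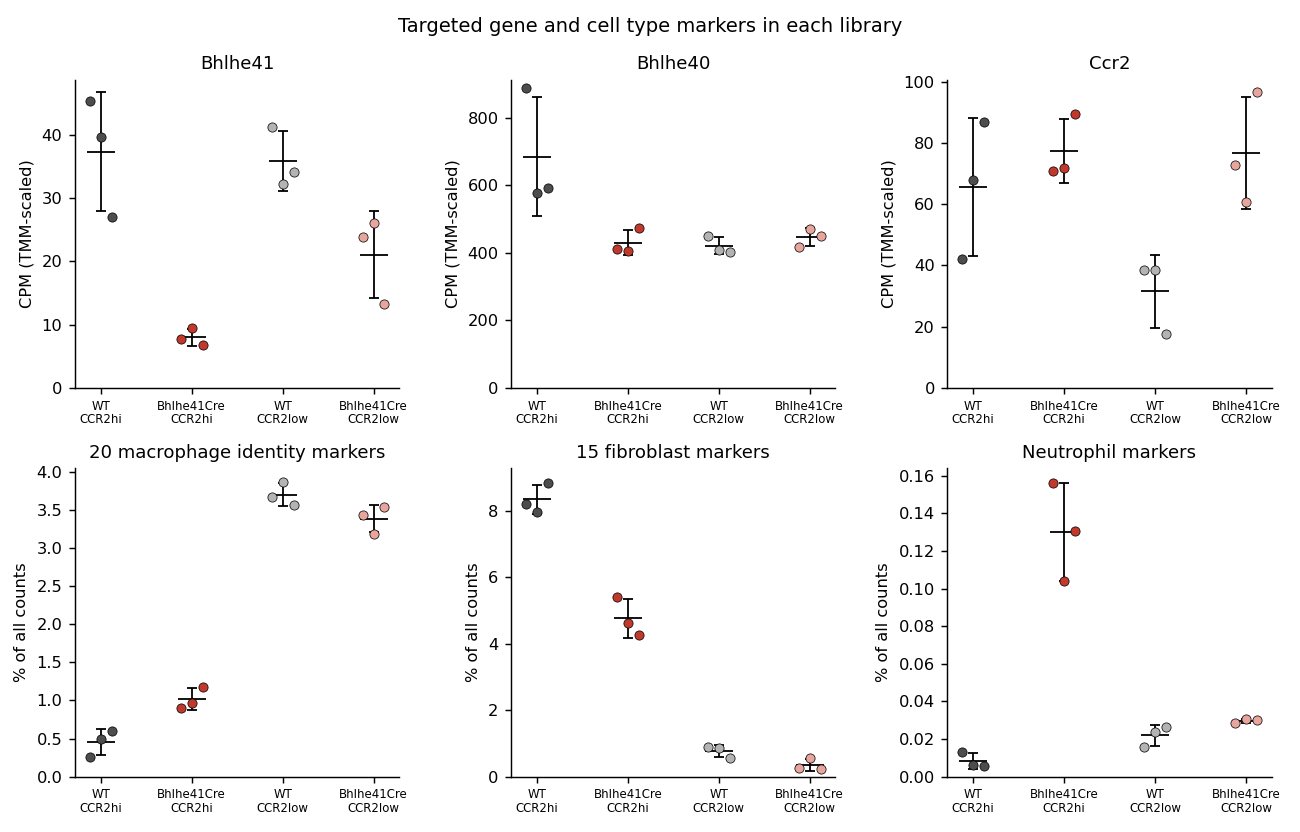
Levels of Bhlhe41, Bhlhe40 and Ccr2 (upper row, CPM) and the share of all counts taken by macrophage identity, fibroblast and neutrophil markers (lower row, percent) in the 4 groups. Points are the 3 libraries of a group, the long dash is their mean and the bars are 1 SD; Bhlhe41Cre CCR2hi libraries are lowest for Bhlhe41 and highest for neutrophil markers.

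Bhlhe41 transcripts were lower in the libraries labelled Bhlhe41Cre, as 7.67, 9.45 and 6.80 CPM against 45.4, 39.7 and 27.1 CPM in WT. The groups did not overlap, and the change was -2.23 ± 0.26 (adjusted p = 5.14e-05), a 4.68-fold difference in mice that keep 1 unaltered allele. Its paralog Bhlhe40 was at 411.4, 406.5 and 472.8 CPM in Bhlhe41Cre and 887.9, 575.9 and 591.7 CPM in WT, a fall by 0.67 on the log2 scale (adjusted p = 0.00665). That call ended against a 1.5-fold minimum (adjusted p = 0.498). Ccr2, the gene of the sorted receptor, stood at 70.8, 71.7 and 89.4 CPM in Bhlhe41Cre and 42.0, 68.0 and 86.7 CPM in WT. These groups overlapped, and the change was 0.24 ± 0.30 (adjusted p = 0.57). In CCR2low Ccr2 was at 72.9, 60.8 and 96.7 CPM in Bhlhe41Cre and 38.5, 38.5 and 17.6 CPM in WT (1.28 ± 0.30, adjusted p = 0.00439). The mean Ccr2 level in Bhlhe41Cre was thus alike in both gates, at 77.3 CPM in CCR2hi and 76.8 CPM in CCR2low. The difference between the genotype effects in the gates was not called (-1.05 ± 0.42, adjusted p = 0.118).

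The bases upstream of 4 clock genes are shown because they hold CACGTG and because these genes moved in different directions. They are from RefSeq on GRCm38.p6, the 250 bases before the annotated start, 5′ to 3′ on the gene's own strand, with each CACGTG in capitals. The Bhlhe41 sequence is at chr6:145865421-145865670 (minus strand), with the motif beginning 153 bases before the start. Per1, a core clock repressor, is at chr11:69098699-69098948 (plus strand), with the motif 166 bases before the start. Another annotated Per1 promoter, at chr11:69099902-69100201, lacks the motif and is not shown. Cry1, the partner of the PER proteins, is at chr10:85185055-85185304 (minus strand), with the motif at 60 bases. Ciart, a repressor of the CLOCK and BMAL1 complex, is at chr3:95882229-95882478 (minus strand), with motifs at 116, 58 and 44 bases.
Bhlhe41: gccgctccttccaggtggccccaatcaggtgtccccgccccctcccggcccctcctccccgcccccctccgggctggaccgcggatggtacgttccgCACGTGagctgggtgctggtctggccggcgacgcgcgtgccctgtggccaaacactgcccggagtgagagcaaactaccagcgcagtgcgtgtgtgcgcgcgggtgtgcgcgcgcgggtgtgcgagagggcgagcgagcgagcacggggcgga
Per1: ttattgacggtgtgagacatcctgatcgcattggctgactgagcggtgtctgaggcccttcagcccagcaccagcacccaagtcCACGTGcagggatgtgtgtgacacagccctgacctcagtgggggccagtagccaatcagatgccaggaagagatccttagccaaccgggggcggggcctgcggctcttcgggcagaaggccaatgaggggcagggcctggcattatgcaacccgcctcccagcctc
Cry1: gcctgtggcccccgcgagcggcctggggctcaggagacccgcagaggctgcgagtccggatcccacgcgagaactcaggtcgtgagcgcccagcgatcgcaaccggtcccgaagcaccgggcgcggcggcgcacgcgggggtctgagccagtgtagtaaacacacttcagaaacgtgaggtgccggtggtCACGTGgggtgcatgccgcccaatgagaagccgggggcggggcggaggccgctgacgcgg
Ciart: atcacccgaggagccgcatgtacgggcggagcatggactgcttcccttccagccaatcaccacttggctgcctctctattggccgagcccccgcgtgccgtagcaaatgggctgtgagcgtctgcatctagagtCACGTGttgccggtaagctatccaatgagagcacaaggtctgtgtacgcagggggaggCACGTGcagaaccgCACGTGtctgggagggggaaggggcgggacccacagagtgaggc

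Of 14452 autosomal genes tested, 4640 (32.1%) were called at an adjusted p under 0.05, and the circadian clock list had 9 of its 21 members called, 6 lower and 3 higher. Its median change was -0.32, against -0.03 over all autosomal genes tested, and its direction depends on the scaling: 16 members were lower and 0 higher (median -1.60) when libraries were scaled to the summed macrophage markers, and 2 lower and 7 higher (median 0.60) when scaled to the summed fibroblast markers. Bhlhe41 and Bhlhe40 are 2 of the 6. Npas2, a paralog of CLOCK, was at 4.56, 4.34 and 2.89 CPM in Bhlhe41Cre and 14.0, 17.8 and 21.3 CPM in WT (-2.17 ± 0.33, adjusted p = 0.000371). Per1 was at 67.7, 72.6 and 108.8 CPM against 202.9, 196.7 and 166.0 CPM in WT (-1.18 ± 0.18, adjusted p = 0.000404). Arntl, which encodes BMAL1, fell by 0.98 on the log2 scale (adjusted p = 0.00376) and the change of Cry2 was -1.102 (adjusted p = 0.0124). The call of Cry2 ended without WT replicate 1 and Bhlhe41Cre replicate 3. These 2 libraries stand apart within their groups by the share of macrophage identity markers, though not by that of fibroblast markers. Cry1 rose from 11.5, 15.4 and 13.2 CPM in WT to 25.5, 22.7 and 21.0 CPM (0.78 ± 0.20, adjusted p = 0.00924), but not without Bhlhe41Cre replicate 1 or without those 2 libraries (adjusted p between 0.00476 and 0.306 across alternatives). Ciart, at 2.25, 2.82 and 2.53 CPM against 1.33, 1.63 and 1.02 CPM, rose by 0.93 ± 0.24 (adjusted p = 0.0111), a call that ended with no low-count filter and against a 1.5-fold minimum (adjusted p up to 0.186). With libraries scaled to fibroblast markers Bhlhe41 (-1.34) and Npas2 (-1.28) kept their calls, and Per1 (-0.25), Arntl (-0.10) and Cry2 (-0.21) did not. Activators (Arntl, Npas2) and repressors (Per1, Cry2, Bhlhe41) thus stood among the lower genes, and Cry1 and Ciart among the higher ones. Csnk1d, a kinase of the PER proteins, completed the higher ones (0.39 ± 0.14, adjusted p = 0.0398), a call that ended in 9 of 18 alternatives, among them without WT replicate 2 or 3 or Bhlhe41Cre replicate 1 or 2. On a scale set by macrophage markers Cry1, Ciart and Csnk1d turned to -0.39, -0.28 and -0.91.

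CACGTG was present in the promoter window, 250 bases before to 50 after the start, of 11.4% of the 10658 tested autosomal genes that matched a RefSeq promoter. The motif is its own reverse complement, so both strands are read at once. A gene with several promoters was counted if any of them held the motif, as for Per1. Among genes called higher the share was 13.5% (239 of 1765), among genes called lower 9.92% (168 of 1694) and among genes not called 11.2% (806 of 7199). Counted per promoter and not per gene, the share over all autosomal promoters, expressed or not, was 7.14%. Of 17 clock genes with a promoter, 5 held the motif: Bhlhe41 and Per1, which were lower, Cry1 and Ciart, which were higher, and Tef, whose change of 0.46 ± 0.22 was not called (adjusted p = 0.129). These matches describe letters in a window and not bound sites.

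The 4640 called genes divided into 2339 higher (16.2% of those tested) and 2301 lower (15.9%) in Bhlhe41Cre. A change of over 2-fold was seen in 920 of the higher and 880 of the lower genes, over 4-fold in 285 and 157, and over 8-fold in 111 and 39. The 3 libraries of one genotype lay entirely above or below those of the other in 6977 genes (48.3%), of which 4502 were called. Without WT replicate 1 and Bhlhe41Cre replicate 3 the calls were 2099 higher and 1987 lower, and without Bhlhe41Cre replicate 2, which mattered most to the count, 1625 and 1528. The even split belongs to the scaling by trimmed means of M values (TMM), which takes most genes as unchanged. With deposited TPM values (transcripts scaled for length and depth) it was 1549 higher and 2806 lower. That setting also changed the test, to limma on log2(TPM + 1), and the genes, to those averaging at least 1 TPM. With library size alone the split was 2889 higher and 1785 lower. Scaled to the summed macrophage identity markers, called the macrophage scale below, it was 218 higher and 10709 lower, with the median gene shifted by -1.22. Scaled to the summed fibroblast markers, called the fibroblast scale, it was 6481 higher and 146 lower, with a shift of 0.90. All changes below are therefore relative to the average gene, and list medians are given with those on the marker scales. On the macrophage scale 34 of the called genes named in this text kept their direction but lost their call. Without WT replicate 1 and Bhlhe41Cre replicate 3, the higher members numbered 10 for neutrophil, 9 for recruited monocyte, 16 for chemokine ligand, 11 for NRF2 target, 13 for macrophage identity and 9 for lipid-associated genes, and the lower members 13 for collagen, 6 for activated fibroblast, 9 for Wnt and 15 for immediate early genes.

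**Figure D2:**
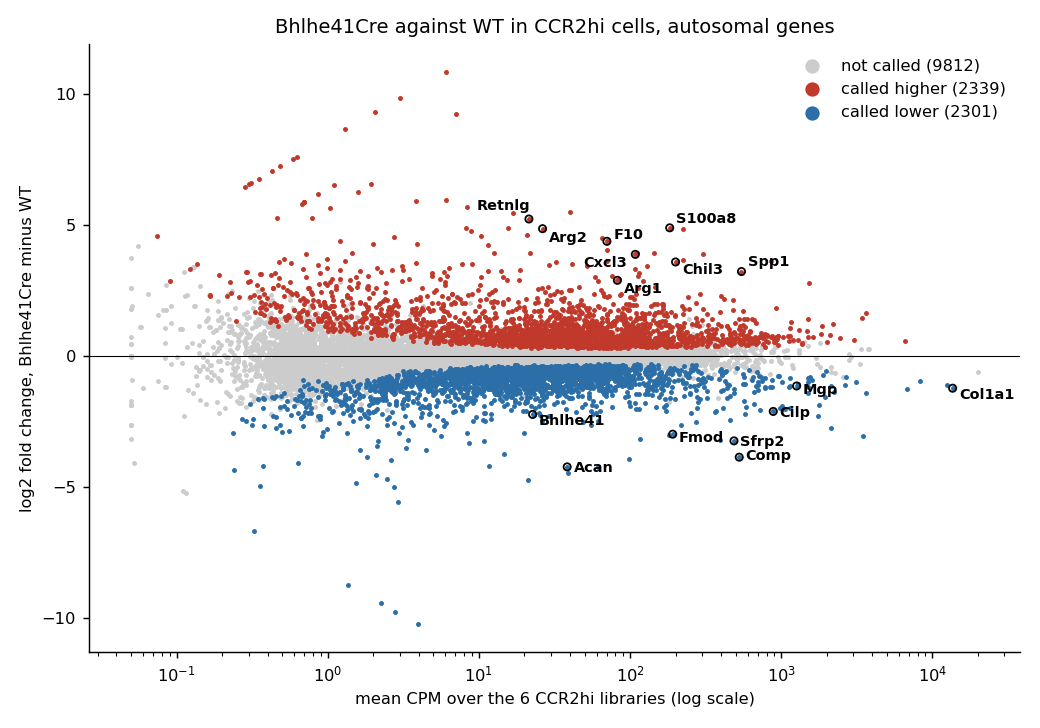
Log2 fold change of each autosomal gene (Bhlhe41Cre minus WT, CCR2hi, TMM scaling) against its mean CPM over the 6 libraries on a log axis. Red genes (2339) were called higher and blue genes (2301) lower; labels mark neutrophil, monocyte and chemokine genes among the higher ones and cartilage and matrix genes among the lower ones. On the macrophage scale 218 genes were called higher and 10709 lower.

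Genes of neutrophils and recruited monocytes were prominent among the higher genes, although the 5 highest changes among called genes averaging 5 CPM or more whose genotypes did not overlap were in gene models that share sequence with others, described further on. Of 12 neutrophil markers 11 were called higher and 0 lower, with a median of 3.76 (2.61 on the macrophage scale, where 9 were higher), and together they took 0.130% ± 0.026 of counts in Bhlhe41Cre and 0.0083% ± 0.0040 in WT (SD, n = 3 each). S100a8 and S100a9, the subunits of calprotectin, a cytosolic protein of neutrophils and monocytes, showed this clearly. S100a8 was at 454.4, 272.8 and 335.6 CPM in Bhlhe41Cre and 22.8, 8.04 and 4.59 CPM in WT (4.90 ± 0.59, adjusted p = 9.36e-05). S100a9 was at 517.7, 370.9 and 413.1 CPM against 28.2, 9.24 and 6.93 CPM (4.87 ± 0.56, adjusted p = 6.66e-05). WT replicate 1 was the highest WT library for both, yet far below every Bhlhe41Cre library. Retnlg, a resistin-like protein of neutrophils, was at 71.8, 24.6 and 28.9 CPM against 1.73, 0.945 and 0.611 CPM (5.24 ± 0.71, adjusted p = 0.000184). Fpr1, the receptor for formylated bacterial and mitochondrial peptides, rose by 4.25 ± 0.35 (adjusted p = 3.49e-06), and Mmp8, neutrophil collagenase, by 3.93 ± 0.31 (adjusted p = 2.78e-06). The chemokine receptor Cxcr2 was at 9.16, 7.54 and 14.7 CPM against 2.37, 1.37 and 0.611 CPM, and the granulocyte growth factor receptor Csf3r at 58.7, 68.5 and 111.7 CPM against 22.9, 23.4 and 21.0 CPM. Stfa2l1 (4.90 ± 0.66) and Gm5483 (5.96 ± 0.53), stefin-A-like genes close together on chromosome 16, also led the list of changes, with reads that near-identical copies may share.

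The recruited monocyte list had 11 of 19 members higher and 2 lower, with a median of 1.65 (0.58 on the macrophage scale). F10, coagulation factor X, was at 122.5, 128.1 and 152.0 CPM in Bhlhe41Cre and 5.32, 6.41 and 7.49 CPM in WT (4.39 ± 0.21, adjusted p = 1.18e-07). The libraries of each genotype lay close together, and F10 stood with Clec4d and Arg2 at the smallest p-values of the comparison. The C-type lectins Clec4d (3.96 ± 0.18, adjusted p = 1.18e-07) and Clec4e (3.92 ± 0.37, adjusted p = 1.21e-05), which sense fungal, mycobacterial and dead-cell ligands, rose alike, as did the chitinase-like Chil3 (3.60 ± 0.30, adjusted p = 3.57e-06). Ly6c2, the surface marker of inflammatory monocytes, was at 48.2, 62.8 and 69.7 CPM against 5.92, 9.19 and 23.5 CPM (2.23 ± 0.40, adjusted p = 0.00106). Cx3cr1, the fractalkine receptor of patrolling monocytes and resident macrophages, went the other way, at 13.5, 12.9 and 18.4 CPM against 16.02, 43.5 and 44.8 CPM (-1.22 ± 0.35, adjusted p = 0.0165). Its groups overlapped through WT replicate 1, and the call ended without WT replicate 2 or 3 or without Bhlhe41Cre replicate 1 or 2 (adjusted p between 0.000584 and 0.119 across alternatives).

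**Figure D3:**
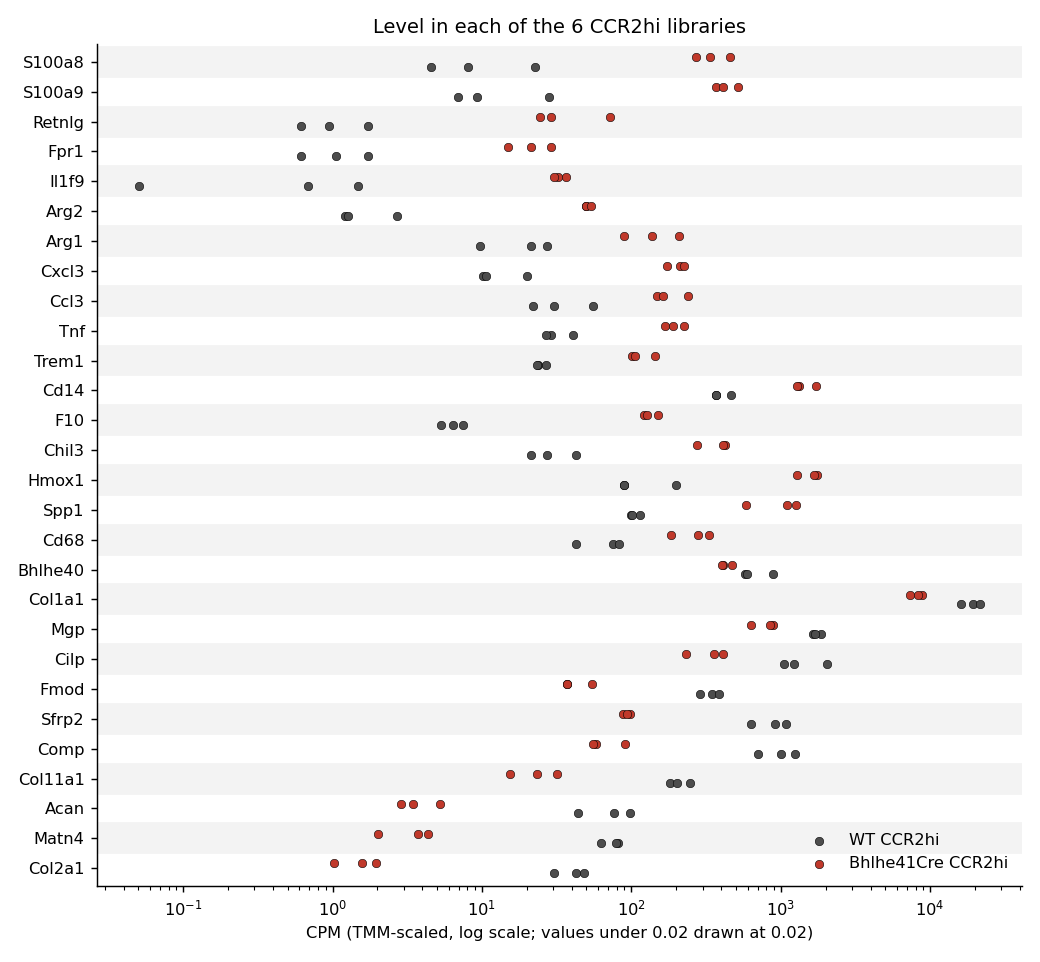
Level of 28 genes (CPM, log axis) in each of the 6 CCR2hi libraries, WT in grey and Bhlhe41Cre in red. Genes run from those higher in Bhlhe41Cre (S100a8 at the top) to those lower (Col2a1 at the bottom), and the 2 genotypes do not overlap for any gene drawn; on the macrophage scale each of these genes kept its direction, and on the fibroblast scale Bhlhe40 turned to 0.24.

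Cytokine, chemokine and receptor genes were mostly higher in Bhlhe41Cre. Of 21 inflammatory cytokines and mediators 15 were higher and 0 lower (median 1.41, and 0.40 on the macrophage scale with 7 higher and 3 lower), and without WT replicate 1 and Bhlhe41Cre replicate 3 the count was 16. Tnf was at 168.4, 189.9 and 224.4 CPM against 29.2, 27.0 and 40.6 CPM in WT (2.59 ± 0.19, adjusted p = 1.33e-06). Il1a was at 90.2, 108.8 and 123.1 CPM against 15.7, 10.9 and 17.8 CPM (2.86 ± 0.19, adjusted p = 7.88e-07). Il1b was at 758.2, 732.9 and 1078 CPM against 226.8, 227.2 and 322.5 CPM (1.73 ± 0.23, adjusted p = 0.000122). For both interleukin-1 genes and Tnf every Bhlhe41Cre library stood above every WT library, with the narrowest gap for Il1b. The call of Il1b ended on the macrophage scale (0.53, adjusted p = 0.115), and those of Il1a (1.61) and Tnf (1.39) did not. Il1rn, the interleukin-1 receptor antagonist, also rose, from 52.2, 19.2 and 25.2 CPM to 372.9, 422.7 and 445.5 CPM (3.68 ± 0.31, adjusted p = 4.58e-06). Il1f9, a cytokine of the interleukin-36 branch, was at 32.1, 30.3 and 36.5 CPM against 1.48, 0.683 and 0.0509 CPM (5.46 ± 0.52, adjusted p = 1.23e-05). Tnfsf14, or LIGHT, rose by 3.49 ± 0.38 (adjusted p = 3.32e-05).

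Among 27 chemokine ligands 17 were higher and 2 lower (median 1.45, and 0.35 on the macrophage scale). Ligands of CXCR2 led them. Cxcl3 was at 172.7, 211.8 and 224.7 CPM against 20.1, 10.2 and 10.7 CPM (3.89 ± 0.27, adjusted p = 1.01e-06), Cxcl5 rose by 3.34 ± 0.41 (adjusted p = 7.36e-05), and the abundant Cxcl2 was at 2513, 2580 and 2917 CPM against 458.3, 300.5 and 398.6 CPM (2.79 ± 0.17, adjusted p = 5.09e-07). Ccl3, a ligand of CCR1, rose by 2.36 ± 0.29 (adjusted p = 7.20e-05). Of 12 chemokine receptors 9 were higher and 1 lower (median 2.03, and 0.95 on the macrophage scale). Ccr1 was at 194.8, 216.9 and 210.7 CPM against 30.2, 15.4 and 22.8 CPM (3.19 ± 0.24, adjusted p = 2.06e-06). Ccr3 had 81 counts over the Bhlhe41Cre libraries and 1 over WT, a ratio of 78.0 with a 95% counting interval of 13.6 to 3119. Ligands and their receptors were thus higher in the same libraries, while Ccr2 was not called.

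The NF-kB list, which holds subunits and the feedback inhibitors that the pathway induces, had 13 of 18 members higher and 1 lower (median 0.69, turning to -0.63 on the macrophage scale, where 0 were higher and 5 lower). Tnip1 (1.47 ± 0.13, adjusted p = 5.35e-06), Traf1 (2.12 ± 0.21, adjusted p = 1.34e-05) and Nfkbib (1.33 ± 0.14, adjusted p = 2.04e-05) dampen or relay this signal, and the adhesion molecule Icam1 rose by 1.75 ± 0.20 (adjusted p = 4.98e-05). Innate sensing receptors had 11 of 17 higher and 1 lower (median 0.76, turning to -0.47 on the macrophage scale). Trem1, an amplifier of myeloid inflammation, was at 101.5, 105.4 and 144.8 CPM against 26.7, 23.7 and 23.5 CPM (2.25 ± 0.18, adjusted p = 2.68e-06). Cd14, the co-receptor for lipopolysaccharide, was at 1322, 1292 and 1734 CPM against 370.9, 367.8 and 466.3 CPM (1.85 ± 0.17, adjusted p = 7.60e-06), and the intracellular peptidoglycan sensor Nod2 rose by 1.51 ± 0.17 (adjusted p = 4.73e-05). The type I interferon response was less uniform, with 8 of 27 higher and 2 lower (median 0.26, turning to -0.84 on the macrophage scale). Oasl1, an interferon-induced protein that restrains IRF7 translation, was at 149.6, 128.7 and 130.7 CPM against 14.2, 14.4 and 20.5 CPM (3.06 ± 0.23, adjusted p = 2.06e-06). Cxcl10 (1.91 ± 0.24) and Ifit1 (1.67 ± 0.29) were also higher, whereas 17 members were not called.

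NRF2 targets, heme and iron genes and arginine genes were called higher more often than lower. Of 15 NRF2 targets, the antioxidant set induced by electrophiles and heme, 12 were higher and 1 lower (median 1.09, turning to -0.13 on the macrophage scale with 3 higher and 3 lower). Hmox1, heme oxygenase 1, was at 1746, 1679 and 1295 CPM against 200.6, 89.6 and 89.0 CPM in WT (3.64 ± 0.30, adjusted p = 3.25e-06). Slc7a11, the cystine importer, was at 138.3, 153.7 and 104.1 CPM against 17.0, 3.83 and 2.96 CPM (4.05 ± 0.55, adjusted p = 0.000228). WT replicate 1 was the highest WT library for both. Osgin1 rose by 2.39 ± 0.15 (adjusted p = 5.09e-07), the peroxiredoxin Prdx1 by 1.43 ± 0.17 (adjusted p = 5.73e-05) and glutathione reductase Gsr by 1.09 ± 0.11 (adjusted p = 1.98e-05), the last turning to -0.13 on the macrophage scale. In the heme and iron list 9 of 17 were higher and 1 lower (median 0.61, turning to -0.60 on the macrophage scale), among them the ferritin chain Fth1 (1.47 ± 0.19), the transferrin receptor Tfrc (2.06 ± 0.27) and the heme exporter Flvcr1 (1.33 ± 0.18).

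Arg2, the mitochondrial arginase, was at 49.6, 49.4 and 54.0 CPM in Bhlhe41Cre and 2.71, 1.21 and 1.27 CPM in WT (4.87 ± 0.25, adjusted p = 1.18e-07), and the cytosolic arginase Arg1 at 89.2, 138.5 and 208.5 CPM against 9.76, 21.3 and 27.5 CPM (2.90 ± 0.38, adjusted p = 0.000118). Slc7a2, a transporter that imports arginine, was lower by contrast (-1.02 ± 0.29, adjusted p = 0.017), a call that ended without WT replicate 1, without Bhlhe41Cre replicate 3 and without both (adjusted p between 0.00322 and 0.173 across alternatives). The arginine and polyamine list as a whole had 6 of 12 higher and 1 lower (median 0.47, turning to -0.82 on the macrophage scale). Alternative activation genes had 10 of 21 higher and 3 lower (median 0.72, turning to -0.51 on the macrophage scale). Il10, the anti-inflammatory cytokine, was at 213.5, 257.0 and 245.0 CPM against 29.8, 15.3 and 20.1 CPM (3.46 ± 0.22, adjusted p = 5.09e-07), and the transglutaminase Tgm2 rose by 1.18 ± 0.14 (adjusted p = 5.37e-05), turning to -0.07 on the macrophage scale. Retnla, a classic product of interleukin-4 signalling, was lower, at 0.288, 0.477 and 0.309 CPM against 1.18, 3.10 and 7.44 CPM (-3.42 ± 0.73, adjusted p = 0.00344).

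**Figure D4:**
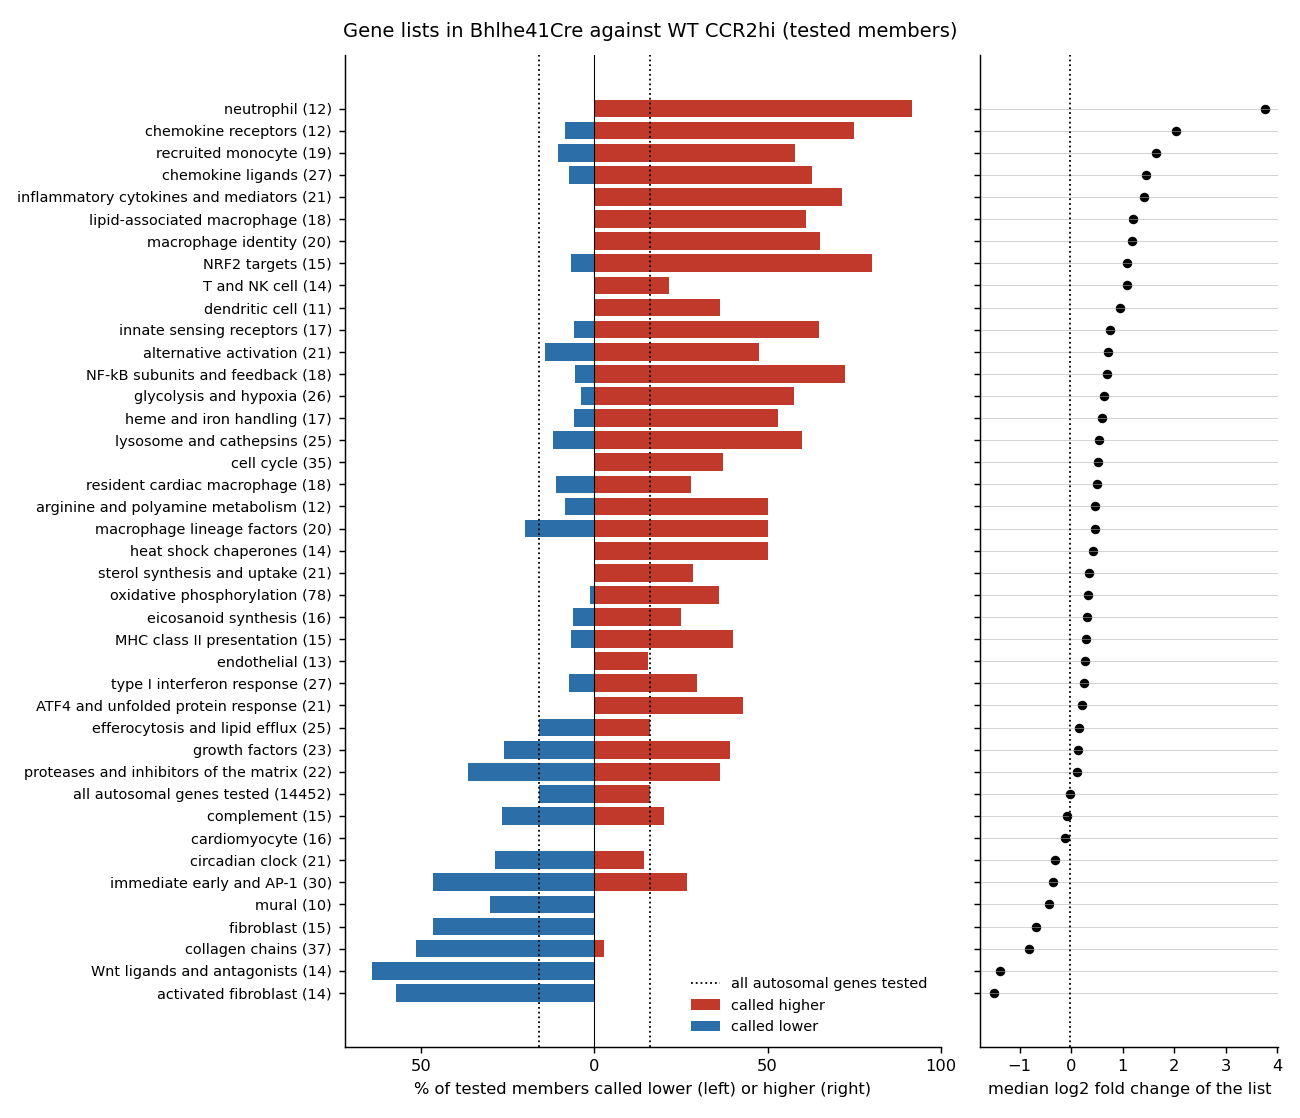
Share of tested members called higher (red, right) and lower (blue, left) in each gene list with at least 10 tested members, ordered by median log2 fold change, which the right panel shows. Dotted lines mark all autosomal genes tested (16.2% higher, 15.9% lower, median -0.03); neutrophil markers had the highest median and activated fibroblast genes the lowest. On the macrophage scale the medians of neutrophil, chemokine receptor, recruited monocyte, inflammatory, chemokine ligand and macrophage identity genes were above 0, and those of the other lists drawn at or below 0.

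Macrophage genes themselves gave a mixed picture. Of the 20 macrophage identity markers 13 were higher and 0 lower (median 1.19, and 0.14 on the scale made from these same genes). Cd68, the endolysosomal glycoprotein, was at 185.7, 279.5 and 330.6 CPM against 42.9, 75.5 and 82.7 CPM (1.98 ± 0.26, adjusted p = 0.000132), and the tetraspanin Cd53 rose by 1.98 ± 0.17 (adjusted p = 4.18e-06). The lineage receptor Csf1r, at 379.5, 361.6 and 486.3 CPM against 178.8, 405.0 and 368.6 CPM, was not called (0.37 ± 0.24, adjusted p = 0.261), nor was Adgre1, which encodes F4/80 (0.47 ± 0.26, adjusted p = 0.189). For both, WT replicates 2 and 3 lay close to the Bhlhe41Cre libraries and WT replicate 1 was lower. Among 20 lineage factors 10 were higher and 4 lower (median 0.46, turning to -0.77 on the macrophage scale). Csf2rb, the shared receptor chain for GM-CSF and interleukin-3, was at 174.0, 168.6 and 168.9 CPM against 36.4, 35.9 and 34.3 CPM (2.26 ± 0.13, adjusted p = 2.16e-07), and the macrophage transcription factor Tfec rose by 3.51 ± 0.27 (adjusted p = 2.06e-06). Resident cardiac macrophage genes had 5 of 18 higher and 2 lower (median 0.50, turning to -0.54 on the macrophage scale). Wfdc17 (2.37 ± 0.24), the platelet factor Pf4 (2.31 ± 0.28) and Ninj1 (1.66 ± 0.15), which ruptures the membrane of dying cells, were higher. Gas6, the bridging ligand between dead cells and TAM receptors, was lower, at 238.6, 200.5 and 215.7 CPM against 564.3, 737.1 and 679.8 CPM (-1.60 ± 0.15, adjusted p = 1.34e-05). Its call ended on the fibroblast scale (-0.70, adjusted p = 0.125). Fibroblasts, whose markers were also lower, express Gas6 too, and their part in its fall was not tested.

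Lipid-associated macrophage genes had 11 of 18 higher and 0 lower (median 1.21, and 0.00 on the macrophage scale). Spp1, osteopontin, was at 588.9, 1262 and 1110 CPM against 114.0, 100.05 and 100.8 CPM (3.23 ± 0.25, adjusted p = 2.16e-06). Gpnmb was at 141.5, 339.9 and 277.5 CPM against 24.4, 49.6 and 48.5 CPM (2.63 ± 0.32, adjusted p = 7.45e-05), Lgals3, galectin-3, rose by 2.30 ± 0.26 (adjusted p = 4.24e-05), and the lipid droplet coat Plin2 by 1.801 ± 0.18 (adjusted p = 1.60e-05). Bhlhe41Cre replicate 1 was the lowest of its group for all 4. Lysosomal genes had 15 of 25 higher and 3 lower (median 0.54, turning to -0.63 on the macrophage scale), a count that dropped to 6 without Bhlhe41Cre replicate 2, to 8 without its replicate 3 and to 6 without WT replicate 1 and Bhlhe41Cre replicate 3. The proteases Lgmn (1.37 ± 0.18) and Ctsb (1.24 ± 0.20) and the cathepsin inhibitor Cstb (2.00 ± 0.17) were higher, and cathepsin F, Ctsf, was lower (-1.54 ± 0.16, adjusted p = 2.57e-05). Efferocytosis and lipid efflux, the uptake of dead cells and export of their cholesterol, had 4 of 25 higher and 4 lower (median 0.16, turning to -0.83 on the macrophage scale). The share called in this list, 32.0%, was near the 32.1% of all autosomal genes tested. The scavenger receptor Msr1 rose by 2.63 ± 0.21 (adjusted p = 2.39e-06), while Lrp1 (-1.18 ± 0.16) and Itgb5 (-1.37 ± 0.19) fell together with Gas6. On the fibroblast scale Lrp1 (-0.29), Itgb5 (-0.46) and Gas6 (-0.70) lost their calls.

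Antigen presentation through MHC class II had 6 of 15 higher and 1 lower (median 0.28, turning to -0.82 on the macrophage scale). The co-stimulatory genes Cd86 (1.68 ± 0.21, adjusted p = 8.96e-05) and Cd40 (1.25 ± 0.16, adjusted p = 0.000125) were among the higher ones, Cd40 at -0.03 on the macrophage scale. Complement had 3 of 15 higher and 4 lower (median -0.07, and -1.27 on the macrophage scale). The receptor C5ar1 rose by 1.48 ± 0.20 (adjusted p = 0.000139), whereas C2, a component of the C3 convertase, fell by 1.504 on the log2 scale (adjusted p = 0.00263). In eicosanoid synthesis 4 of 16 were higher and 1 lower (median 0.31, turning to -0.78 on the macrophage scale). The share called, 31.2%, was near the 32.1% of all autosomal genes tested. Ptgs2, or COX-2, rose by 1.41 ± 0.29 (adjusted p = 0.00289; 0.00 on the macrophage scale), and Alox5ap, which presents arachidonate to 5-lipoxygenase, by 1.41 ± 0.19 (adjusted p = 0.000126).

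The AP-1 and immediate early list split within itself, with 14 of 30 members lower and 8 higher (median -0.36, and -1.56 on the macrophage scale, turning to 0.55 on the fibroblast scale). The lower ones included classic early-response transcription factors. Fos was at 755.6, 605.0 and 944.2 CPM against 1299, 3437 and 3578 CPM in WT (-1.85 ± 0.30, adjusted p = 0.000588), Jun fell by 1.41 on the log2 scale (adjusted p = 0.000192), Klf2 by 2.20 (adjusted p = 0.000121) and Egr2 by 1.30 (adjusted p = 1.36e-05). For Fos the nearest library was WT replicate 1, which lay far below the other two WT libraries. Batf, an AP-1 partner of myeloid and lymphoid cells, rose by 1.63 ± 0.15 (adjusted p = 6.79e-06), and Dusp5, a nuclear ERK phosphatase, by 1.41 ± 0.15 (adjusted p = 2.23e-05). Stress responses to misfolded protein and amino acid lack were higher in part. The ATF4 and unfolded protein list had 9 of 21 higher and 0 lower (median 0.21, turning to -1.05 on the macrophage scale), with Chac1 (2.72 ± 0.46), Dnajb9 (1.41 ± 0.16) and Atf4 itself (1.17 ± 0.16, and -0.15 on the macrophage scale). Heat shock chaperones had 7 of 14 higher and 0 lower (median 0.41, turning to -0.78), among them Hsp90aa1 (1.32 ± 0.24) and Hspa8 (0.82 ± 0.12, turning to -0.39).

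Metabolic and proliferation genes were also called higher more often than lower, and the 4 list medians turned below 0 on the macrophage scale. Glycolysis and hypoxia genes had 15 of 26 higher and 1 lower (median 0.63, and -0.60 on that scale). The myeloid hexokinase Hk3 rose by 2.21 ± 0.28 (adjusted p = 9.73e-05), the lactate exporter Slc16a3 by 1.28 ± 0.17, Ndrg1 by 1.15 ± 0.14 and pyruvate kinase Pkm by 1.07 ± 0.15, the last 2 turning to -0.10 and -0.18. Nuclear-encoded subunits of oxidative phosphorylation had 28 of 78 higher and 1 lower (median 0.33, and -0.89), while the mitochondrially encoded share of counts was lower in Bhlhe41Cre, as given above. Uqcrfs1, the Rieske subunit of complex III, was at 79.3, 81.0 and 91.9 CPM against 50.4, 46.4 and 58.2 CPM (0.70 ± 0.12, adjusted p = 0.000747; -0.52 on the macrophage scale). Without WT replicate 1 and Bhlhe41Cre replicate 3 the oxidative phosphorylation count dropped to 15. Sterol synthesis had 6 of 21 higher and 0 lower (median 0.35, and -0.97). Its 28.6% called, all higher, stood against 32.1% called and 16.2% called higher over all autosomal genes tested. Of 35 cell cycle genes 13 were higher and 0 lower (median 0.52, and -0.83), led by the replication factors Pcna (1.33 ± 0.18) and Cdt1 (1.24 ± 0.21), which stood at -0.02 and -0.14 on the macrophage scale. Without those 2 libraries the cell cycle count was 20.

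Genes of cartilage and other matrix were among the lowest of the comparison. Col2a1, the collagen of cartilage, was at 1.58, 1.96 and 1.03 CPM in Bhlhe41Cre and 30.2, 48.5 and 42.5 CPM in WT (-4.72 ± 0.41, adjusted p = 5.90e-06). Acan, aggrecan, was at 5.23, 3.48 and 2.89 CPM against 43.9, 98.5 and 76.3 CPM (-4.23 ± 0.41, adjusted p = 1.29e-05). Comp, a pentameric glycoprotein of tendon and cartilage, was at 90.7, 57.7 and 55.5 CPM against 706.8, 1253 and 1003 CPM (-3.86 ± 0.33, adjusted p = 4.18e-06). The gap between the genotypes was wide for all 3, with WT replicate 1 the lowest WT library each time. Matn4, a matrilin, fell by 4.47 on the log2 scale (adjusted p = 1.33e-06), and the changes of Cpxm2, Wscd2, C1qtnf3, Adamts16 and Prss35 were -4.23, -4.19, -3.95, -3.72 and -3.32. The collagen list had 19 of 37 chains lower and 1 higher (median -0.82, -2.08 on the macrophage scale, turning to 0.07 on the fibroblast scale, where 9 were lower and 3 higher). The fibroblast scale is itself set in part by Col1a1, Col1a2, Col3a1, Col5a1 and Col6a1. Col11a1, which nucleates fibrils, was at 31.8, 23.5 and 15.5 CPM against 182.2, 246.1 and 203.0 CPM (-3.16 ± 0.40, adjusted p = 9.83e-05), and the changes of Col6a5, Col8a2 and Col4a3 were -3.24, -3.01 and -2.46. Of the abundant fibrillar collagens, Col1a1 was at 8811, 7350 and 8331 CPM against 16159, 19390 and 21711 CPM (-1.23 ± 0.31, adjusted p = 0.00864), and Col3a1 at -0.60 ± 0.31 was not called (adjusted p = 0.147).

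Activated fibroblast genes had 8 of 14 lower and 0 higher (median -1.501, -2.88 on the macrophage scale and -0.65 on the fibroblast scale, where 6 were lower and 2 higher). Cilp, a marker of matrix-producing fibroblasts after infarction, was at 409.1, 356.5 and 232.9 CPM against 2044, 1220 and 1054 CPM (-2.11 ± 0.38, adjusted p = 0.00105). Fmod, the collagen-binding fibromodulin, was at 54.4, 37.4 and 37.4 CPM against 287.6, 346.7 and 386.2 CPM (-2.98 ± 0.32, adjusted p = 3.18e-05), and Ddah1 fell by 2.01 on the log2 scale. General fibroblast markers had 7 of 15 lower and 0 higher (median -0.69, and -1.93 on the macrophage scale), 4 when any 1 of the 6 libraries was left out, and 0 on the scale made from these same genes. Mgp (-1.14 ± 0.22), Fbln1 (-1.30 ± 0.29) and Col1a2 (-1.09 ± 0.28) were among the 7. On the fibroblast scale Col2a1 was at -3.83, Acan at -3.36, Comp at -2.99, Fmod at -2.09 and Cilp at -1.24. Col1a1 (-0.32) and Col1a2 (-0.19) lost their calls there and Col3a1 turned to 0.29. These abundant collagens are among the markers that set that scale, so their small values on it are largely by construction. Wnt ligands and secreted antagonists had 9 of 14 lower and 0 higher (median -1.38, -2.54 on the macrophage scale and -0.49 on the fibroblast scale, where 4 were lower and 3 higher). Sfrp2, a secreted Wnt-binding protein of fibroblasts, was at 98.7, 88.2 and 93.2 CPM against 631.8, 919.3 and 1092 CPM (-3.24 ± 0.33, adjusted p = 1.77e-05). Sfrp1 (-1.95 ± 0.32) and Frzb (-1.86 ± 0.30), both decoy receptors, fell too, as did the ligand Wnt9a (-1.23 ± 0.21).

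Matrix proteases and their inhibitors went in both directions. The list had 8 of 22 higher and 8 lower (median 0.11, turning to -1.19 on the macrophage scale). The urokinase receptor Plaur was at 478.4, 482.9 and 496.6 CPM against 139.4, 71.2 and 74.1 CPM (2.36 ± 0.22, adjusted p = 8.62e-06), and Mmp19 rose by 1.70 ± 0.21 (adjusted p = 7.36e-05). The gelatinase Mmp9, a neutrophil and macrophage product, was at 120.8, 81.4 and 169.7 CPM against 57.9, 23.8 and 11.97 CPM (1.99 ± 0.52, adjusted p = 0.0116), a call that ended with no low-count filter and against a 1.5-fold minimum (adjusted p up to 0.0681). The other gelatinase, Mmp2, a fibroblast product, was at 493.9, 357.9 and 338.6 CPM against 1331, 1563 and 1815 CPM (-1.98 ± 0.28, adjusted p = 0.000215), and its inhibitor Timp2 fell by 1.20 on the log2 scale. Growth factors had 9 of 23 higher and 6 lower (median 0.12, turning to -1.21 on the macrophage scale). Areg (2.08 ± 0.24), an EGF receptor ligand, and Gdf15 (1.49 ± 0.18), a stress-induced hormone, were higher. Tgfb3 was at 124.9, 117.6 and 95.5 CPM against 360.5, 485.6 and 476.7 CPM (-1.97 ± 0.16, adjusted p = 3.57e-06), and Igf1 fell by 1.05 on the log2 scale (adjusted p = 0.000639).

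Markers of further cell types were few in counts. Endothelial markers took 0.368% ± 0.053 of counts in Bhlhe41Cre and 0.298% ± 0.078 in WT, with 2 of 13 higher and 0 lower, Cldn5 among them (0.83 ± 0.19, and -0.37 on the macrophage scale). Mural markers had 3 of 10 lower and 0 higher, including Cspg4 (-1.24 ± 0.17) and Pdgfrb (-1.13 ± 0.21). Of 16 cardiomyocyte markers 0 were called by edgeR or by DESeq2 and 1 had an unadjusted p under 0.05, with Mb, myoglobin, at 44.5, 45.6 and 59.5 CPM against 34.7, 47.5 and 58.0 CPM. Dendritic cell markers had 4 of 11 higher (median 0.94), with Xcr1 (3.26 ± 0.40) and Ccr7 (2.91 ± 0.55). T and NK markers had 3 of 14 higher (median 1.08), with Il7r (2.04 ± 0.34), and mast cell markers 3 of 5 (median 1.26), with Cpa3 (2.68 ± 0.55). Mesothelial markers had 3 of 8 higher, with the keratin Krt18 (2.80 ± 0.30), but their median was 0.15. The mesothelial list took 0.0058% of counts in Bhlhe41Cre and 0.0053% in WT. On the macrophage scale the medians were -0.82 for endothelial, -1.67 for mural, -1.24 for cardiomyocyte, -0.42 for dendritic cell, -0.02 for T and NK, 0.05 for mast cell and -0.87 for mesothelial markers. The dendritic, T and NK, mast cell and mesothelial lists each took on average at most 0.0396% of counts in either genotype. The share of members called was 15.4% for endothelial, 30.0% for mural, 36.4% for dendritic cell and 21.4% for T and NK markers. It was 60.0% for mast cell and 37.5% for mesothelial markers, against 32.1% of all autosomal genes tested. B cell markers had 1 of 9 higher and 1 lower, 22.2% called (median 0.22, turning to -0.92 on the macrophage scale). The lower one was Ighm, the heavy chain of IgM, at 15.4, 19.6 and 30.7 CPM against 203.6, 26.4 and 61.9 CPM. WT replicate 1 held most of the WT counts, and the call (-2.15 ± 0.58, adjusted p = 0.0139) ended without it and without Bhlhe41Cre replicate 1 or 2 (adjusted p between 0.0017 and 0.0678 across alternatives). The globin gene Hbb-bs ranged from 48.1 to 785.2 CPM over the 6 libraries and was not called (adjusted p = 0.302).

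Several of the highest changes were in gene models that share sequence or span with others, so their counts depend on how reads were assigned. Gm28048 (chr11:22834744-22982090) overlaps 7 other annotated genes, among them Commd1 and B3gnt2. It had 324, 153 and 260 counts in Bhlhe41Cre and 0 in each WT library, at least 78.9-fold higher against a floor of 3 counts per library. Rpl15-ps2, a processed pseudogene of a ribosomal protein gene, had 866 counts over Bhlhe41Cre and 1 over WT, a ratio of 834 with a 95% counting interval of 149.3 to 32980. Rpl15 was at 502.6, 572.5 and 535.9 CPM against 369.6, 326.1 and 379.4 CPM (0.58 ± 0.14, adjusted p = 0.00656), turning to -0.66 on the macrophage scale. Tpm3-rs7, a tropomyosin-related copy, was at 75.9, 102.2 and 57.0 CPM against 2.61, 1.26 and 1.22 CPM (5.52 ± 0.39, adjusted p = 1.00e-06), whereas Tpm3 changed by 0.18 ± 0.15 (adjusted p = 0.364). Both copies lay far outside the range of the WT libraries. Another pseudogene, Gm10020, rose by 5.71 ± 0.39 (adjusted p = 8.04e-07). In CCR2low Rpl15-ps2 (6.53), Tpm3-rs7 (5.45) and Gm10020 (4.85) were also higher in Bhlhe41Cre, whereas Gm28048 changed by -0.26. The difference between gates was not called for Rpl15-ps2, Tpm3-rs7 or Gm10020 (adjusted p = 0.203, 0.942 and 0.36). Over all 163 processed pseudogenes tested, 30 were higher and 2 lower (median 0.40), against 2188 higher and 2195 lower of 13283 protein-coding genes. Gm20388 spans 209 other annotated genes on chromosome 8, and its call (4.89, adjusted p = 0.0437) ended in 11 of 18 alternatives.

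**Figure D5:**
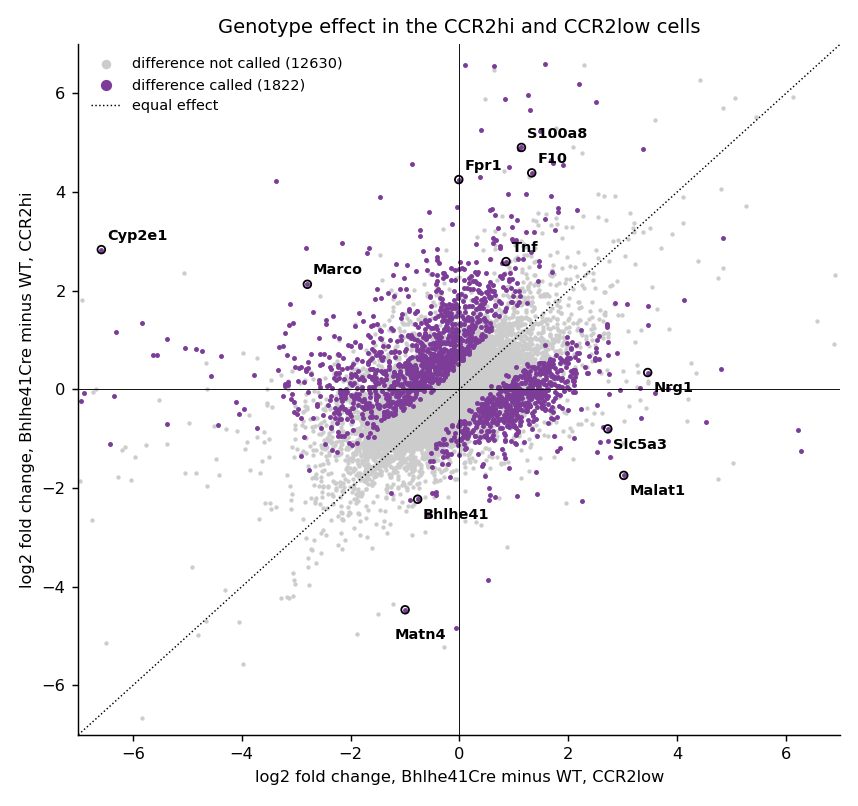
Log2 fold change between genotypes in CCR2low (horizontal) and CCR2hi (vertical) for each autosomal gene, purple where the difference between the 2 effects was called (1822 genes). Both axes end at 7, which leaves 45 genes outside; genes on the dotted line changed equally, and neutrophil genes such as S100a8 and Fpr1 lie above it.

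The genotype effect was set against that in CCR2low cells, where 6234 of the same genes (43.1%) were called. The effects in the 2 gates differed in 1822 genes (12.6%), 1149 of them with the higher value in CCR2hi and 673 in CCR2low. Leaving out Bhlhe41Cre CCR2hi replicate 3 lowered this count to 895, and leaving out WT CCR2hi replicate 1 as well to 784. Same-numbered CCR2hi and CCR2low libraries deviated together in Bhlhe41Cre (r = 0.227, 0.119 and 0.396 across genes) but not in WT (-0.0642, 0.0284 and -0.0476). In Bhlhe41Cre, CCR2hi replicate 1 and CCR2low replicate 2 did so too (r = 0.215), so whether the numbers mark pairs was not settled. A limma-voom fit that lets same-numbered pairs correlate called 2583 differences. Neutrophil genes were among the 1822. Fpr1 was at 12.6, 10.1 and 7.82 CPM in Bhlhe41Cre CCR2low and 8.95, 12.1 and 9.84 CPM in WT CCR2low, a change of -0.01 there against 4.25 in CCR2hi (difference 4.26 ± 0.45, adjusted p = 0.000307). Of the 12 neutrophil markers 9 had a called difference, and in CCR2low 2 were higher. Clec4d (difference 2.73 ± 0.24) and F10 (3.06 ± 0.27) also rose more in CCR2hi, each with an adjusted p of 0.000154, and WT CCR2low libraries already held them at 183.8 to 220.3 and 35.8 to 62.2 CPM. Cd14 was at 2584, 2782 and 2740 CPM in WT CCR2low and 2637, 2283 and 3077 CPM in Bhlhe41Cre CCR2low, and its genotype effect was larger in CCR2hi (difference 1.87 ± 0.23, adjusted p = 0.000808). Tnf rose in both gates, by 0.86 and 2.59 (difference 1.73 ± 0.25, adjusted p = 0.00168). The differences of Tnf and Cd14 were not called on the macrophage scale (0.43, adjusted p = 0.375, and 0.56, adjusted p = 0.253) or on the fibroblast scale (1.34, adjusted p = 0.204, and 1.51, adjusted p = 0.145), and that of Clec4d was not called on the macrophage scale (1.28, adjusted p = 0.0581). Of the 20 macrophage identity markers 9 had a called difference, and in CCR2low 1 was higher and 0 lower.

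Wnt genes were also lower in CCR2low, with 11 of 14 lower and 1 higher. The difference between gates was called for 0 of the 14 by edgeR or by DESeq2, with 1 at an unadjusted p under 0.05, and for 1 of 37 collagen chains. Matn4 differed, falling by 4.47 in CCR2hi and by 1.00 in CCR2low (difference -3.47 ± 0.47, adjusted p = 0.00108). Bhlhe41 was also lower in CCR2low, at 23.9, 26.015 and 13.3 CPM against 41.2, 32.3 and 34.2 CPM, and its fall was larger in CCR2hi (difference -1.46 ± 0.35, adjusted p = 0.0186), a call that ended without WT CCR2hi replicate 1 and Bhlhe41Cre CCR2hi replicate 3 together. Nrg1, the ErbB receptor ligand neuregulin, was at 22.8, 12.2 and 15.9 CPM against 0.692, 2.41 and 1.48 CPM in CCR2low and changed by 0.34 ± 0.30 in CCR2hi (difference -3.12 ± 0.46, adjusted p = 0.00183).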

How the data were processed

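RNA-seq of 12 libraries (WT and Bhlhe41Cre, CCR2low and CCR2hi, 3 each) was used. Per the submitters' processing notes, the authors used CASAVA 1.8, STAR 2.4.0j and RSEM with mm10 (the version of RSEM is not given in the sources used here), and deposited estimated counts, as whole numbers, and TPM for 53801 genes. Strand was not stated, so a gene and its antisense partner cannot be told apart. Of the IDs, 53706 were placed with GENCODE M21 on GRCm38. Promoters are RefSeq's for GRCm38.p6.

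The counts were fitted over all 12 libraries with edgeR 4.0.16 (R 4.3.3; TMM scaling, low-count filter, quasi-likelihood test), with Benjamini-Hochberg adjustment over all 14964 genes tested, of which 14452 are autosomal. Every adjusted p in the text is from this fit unless another tool, scale, fold minimum, filter or sample set is named. Those, and the ranges across alternatives, are from the alternative fits described below. Replicate numbers did not pair the genotypes within CCR2hi. Across gates same-numbered libraries deviated together in Bhlhe41Cre but not in WT, and a differently numbered Bhlhe41Cre pair did so too (r = 0.215). Whether the numbers mark pairs was thus not settled, and a fit with gate pairs correlated (limma-voom, consensus correlation 0.165) was an alternative. DESeq2 1.42.0, limma 3.58.1 and other scalings, filters and sample sets served as alternatives, 2 of which (the fibroblast marker scale and leaving out 2 libraries together) were added after the data were seen. Scripts were tested on simulated counts. Intervals and floors of 3 counts cover counting error only.

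The lists and genes were chosen with earlier results of these data known. Named were the 12 highest and 12 lowest called genes whose genotypes did not overlap and whose CPM averaged 5 or more, up to 4 called members per list by smallest p, and the 5 highest and 5 lowest differences between gates. Il1b, Fos, Jun, Klf2, Cx3cr1, Retnla, Adgre1, Csf1r, Col3a1, Ly6c2, Mmp9, Mmp2, Slc7a11, Gpnmb, Rpl15 and Tpm3 fall outside that rule and were chosen after their values were seen. One gene that the rule selects is not reported here.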

Additional observations from a re-analysis of the deposited data

Results flagged for a closer look

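For 19 genes the genotype effect in CCR2hi differed from that in CCR2low by a test of the difference itself (edgeR interaction term, adjusted over all genes tested, 3 libraries per group). The effect was higher in CCR2hi for S100a8 by 3.76 (adjusted p = 0.00844), S100a9 by 3.78, Fpr1 by 4.26, Clec4d by 2.73, F10 by 3.06, Tnf by 1.73 and Cd14 by 1.87 on the log2 scale. It was lower in CCR2hi for Bhlhe41, at -1.46, Bhlhe40, at -0.76 (adjusted p = 0.045), Matn4, at -3.47, and Nrg1, at -3.12. The call for Bhlhe40 ended with the replicate block, library size scaling and a 1.5-fold minimum (adjusted p up to 0.466), and that for Bhlhe41 in TPM, against a 1.5-fold minimum and without WT CCR2hi replicate 1 and Bhlhe41Cre CCR2hi replicate 3 together. On the macrophage scale the calls of S100a8 (2.14, adjusted p = 0.0802), S100a9 (2.17, adjusted p = 0.0706), Clec4d, Tnf and Cd14 ended. On the fibroblast scale those of Tnf, Cd14, Bhlhe41 (adjusted p = 0.0549), Bhlhe40 (adjusted p = 0.393) and Cyp2e1 (adjusted p = 0.101) ended.

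For several genes the difference came with a change in CCR2low. Malat1, a nuclear non-coding RNA, was at 365.5, 307.2 and 79.96 CPM in Bhlhe41Cre CCR2low and 20.6, 27.1 and 45.2 CPM in WT CCR2low (difference -4.76). Slc5a3, the inositol transporter, differed by -3.53. Cyp2e1, a liver and fat oxidase, differed by 9.41, with WT CCR2low libraries at 7.19, 12.2 and 251.9 CPM, of which replicate 3 held most. The call for Cyp2e1 ended without WT CCR2hi replicate 1 and without Bhlhe41Cre CCR2hi replicate 3. Marco, a scavenger receptor, differed by 4.92, and its call ended without WT CCR2hi replicate 1 and without Bhlhe41Cre CCR2hi replicate 2 or 3. Itih4, an acute-phase protein, differed by 4.44. The calls of Alox15 (4.27), which synthesises lipid mediators, and Gm38394 (-3.10), which overlaps Zbed6 and Zc3h11a, each ended in 12 alternatives, including without WT CCR2hi replicate 1 or 2 and without any Bhlhe41Cre CCR2hi replicate, and for Alox15 also without WT CCR2hi replicate 3. With gate pairs of one replicate number correlated (limma-voom), the calls of Cyp2e1, Marco, Alox15 and Gm38394 ended, and that of Gm38394 also ended with the replicate block. Gm28048, listed at 0 in WT CCR2hi, had a fitted difference of 11.13, which depends on the prior count.

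Xist, outside the autosomal comparison, had 1798, 1589 and 1403 counts in the Bhlhe41Cre CCR2hi libraries against 3, 0 and 0 in WT.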

How the results depend on the processing

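Of 151 called genes named, 134 kept their call in every alternative run for them other than the marker scales (18 for most, 16 or 17 for Ccr3, Xcr1 and Cpa3), as did 13 of the 19 differences between gates (16 or 17 alternatives each). Calls were lost without a turn in direction for 34 named genes on the macrophage scale and 22 on the fibroblast scale. Among the 34 were Il1b (0.53), Cd14 (0.64), Csf3r (0.55), Icam1 (0.39), Traf1 (0.81), Tnip1 (0.22), Nod2 (0.24), Cxcl10 (0.69), Ifit1 (0.49), Fth1 (0.28), Tfrc (0.83) and C5ar1 (0.29). The 22 on the fibroblast scale included Lrp1 (-0.29), Itgb5 (-0.46), Gas6 (-0.70), Igf1 (-0.15) and Ctsf (-0.64). They also included C2 (-0.62), Timp2 (-0.30), Jun (-0.49) and Egr2 (-0.39). Without 1 CCR2hi library the higher calls numbered 1625 to 2417, the lower 1528 to 2404, all calls 3153 to 4821 and called differences between gates 895 to 1557 (784 without the 2 libraries that stand apart). A 1.5-fold minimum left 1283 genes, 700 higher and 583 lower, and 468 differences between gates. TPM gave 1549 higher and 952 differences. The macrophage scale gave 10927 calls (218 higher, 10709 lower) and 6462 differences, and the fibroblast scale 6481 higher, 146 lower and 404 differences. DESeq2 called 2346 higher and 2666 lower.

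On the macrophage scale the higher members were 7 (inflammatory), 6 (chemokine ligands), 3 (NRF2), 3 (macrophage identity), 4 (lipid-associated) and 1 (lysosome), and the lower members 15 (fibroblast), 13 (activated fibroblast) and 33 (collagens). On the fibroblast scale 20 macrophage identity and 18 lipid-associated members were higher, and 0 fibroblast, 9 collagen, 4 Wnt and 2 immediate early members were lower. Against a 1.5-fold minimum 5 lysosome members were higher, and 2 fibroblast, 12 collagen and 7 immediate early members lower. Lysosome members called higher numbered 6 to 16 without 1 library and 6 without the 2 that stand apart. Fibroblast members called lower numbered 4 to 4 without 1 library, 4 without the 2, 4 with library size scaling and 13 with the 6 CCR2hi libraries alone. The fibroblast share differed by -2.17 percentage points in TPM.

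On the fibroblast scale Bhlhe40 turned to 0.24, Col3a1, itself a marker of that scale, to 0.29 and Slc5a3 to 0.07. On the macrophage scale these turned: Adgre1 -0.56, Ccr2 -0.86, Cry1 -0.39, Ciart -0.28, Csnk1d -0.91, Tef -0.92, Gsr -0.13, Cd40 -0.03, Tgm2 -0.07, Atf4 -0.15, Hspa8 -0.39, Ptgs2 -0.0, Cldn5 -0.37, Ndrg1 -0.1, Pkm -0.18, Uqcrfs1 -0.52, Pcna -0.02, Cdt1 -0.14, Mb -1.05, Rpl15 -0.66, Tpm3 -1.13, Nrg1 -0.84 and Csf1r -0.71. The marker scales shift every gene by construction, and the cause of the other changes was not tested. With the replicate block 2190 genes were higher, 2129 lower and 1522 differences between gates called; beside Bhlhe40 and Gm38394 (differences) it ended the call of Gm20388. Same-numbered CCR2hi libraries of the 2 genotypes deviated together at r = 0.104, -0.164 and 0.147, so the numbers do not pair the genotypes.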
